A study of Mus musculus with 9 samples.

Results

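The sarcomeric myosin heavy chain genes Myh1, Myh2, Myh3, Myh4, Myh6, Myh7, Myh7b and Myh8 were described across 9 RNA libraries of injured mouse tibialis anterior, a hind limb muscle. They were chosen by gene symbol and are 8 of the 54532 genes in the table. The 3 groups had 3 libraries each: wild type at a young age (4 to 6 months), wild type at an old age (24 months), and P311-/- animals labelled only as old. P311 is the protein of the gene Nrep, and both alleles were deleted in the P311-/- group. The muscle of all 3 groups had been injured, and neither the kind of injury nor the time since then is given. The labels do not say whether each library came from a separate animal, so p-values reflect only how far these libraries spread, and that spread may be technical. The age contrast addressed how injured muscle differs with age, and P311-/- against old wild type addressed what removing P311 changes in old injured muscle. P311-/- against young wild type differs in age and genotype at once, so their parts cannot be told apart in it. The age of the P311-/- animals in months is not given, so P311-/- and old wild type may also differ in age.

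Myosin heavy chain is the motor of the thick filament, and each gene of the family gives a fibre a different contraction speed. Adult mouse limb muscle uses type IIb (Myh4), IIx (Myh1) and IIa (Myh2) in fast fibres and the slow chain (Myh7) in type I fibres. Embryonic (Myh3) and perinatal (Myh8) myosin are used during development and return for a time in newly formed fibres after injury. Myh6 is the alpha chain of heart, and Myh7b is an ancient slow-type gene that carries a microRNA. Mouse tibialis anterior is known as a fast muscle with very few slow fibres.

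The 5 genes Myh3, Myh2, Myh1, Myh4 and Myh8 lie in this order on the plus strand of chromosome 11 in the skeletal myosin cluster, and all positions are on GRCm38. Myh3 (ENSMUSG00000020908) lies at 67078300 to 67102291, Myh2 (ENSMUSG00000033196) at 67171027 to 67197517 and Myh1 (ENSMUSG00000056328) at 67200052 to 67224575. Myh4 (ENSMUSG00000057003) lies at 67238029 to 67260446 and Myh8 (ENSMUSG00000055775) at 67277124 to 67308634. Myh6 (ENSMUSG00000040752; 54941921 to 54966927) and Myh7 (ENSMUSG00000053093; 54970684 to 54994626) are neighbours on the minus strand of chromosome 14. Myh7b (ENSMUSG00000074652) lies on chromosome 2 at 155611212 to 155634307, on the plus strand.

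The promoters of Myh1, Myh4, Myh8 and Myh2 are shown because neighbours in 1 cluster gave unlike values: Myh1 and Myh4 were the most abundant members and differed in how they varied with group. The windows hold the 250 bases before the start site in RefSeq (GRCm38.p6), 5′ to 3′ on the plus strand, and capitals mark motif matches on either strand.
Myh1 promoter: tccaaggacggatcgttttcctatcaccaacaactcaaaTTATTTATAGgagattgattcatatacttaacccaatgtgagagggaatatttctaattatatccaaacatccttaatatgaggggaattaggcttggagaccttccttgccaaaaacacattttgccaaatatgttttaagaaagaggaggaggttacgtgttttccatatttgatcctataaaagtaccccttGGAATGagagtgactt
Myh4 promoter: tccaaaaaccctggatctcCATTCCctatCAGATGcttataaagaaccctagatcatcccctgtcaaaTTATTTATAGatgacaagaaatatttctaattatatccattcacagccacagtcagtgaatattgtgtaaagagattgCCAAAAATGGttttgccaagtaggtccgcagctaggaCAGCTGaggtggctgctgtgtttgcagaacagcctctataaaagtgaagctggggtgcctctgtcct
Myh8 promoter: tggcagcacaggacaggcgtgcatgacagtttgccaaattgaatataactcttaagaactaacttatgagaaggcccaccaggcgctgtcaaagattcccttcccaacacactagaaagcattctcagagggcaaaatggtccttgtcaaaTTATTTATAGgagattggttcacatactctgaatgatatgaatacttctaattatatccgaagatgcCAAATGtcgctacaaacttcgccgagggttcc
Myh2 promoter: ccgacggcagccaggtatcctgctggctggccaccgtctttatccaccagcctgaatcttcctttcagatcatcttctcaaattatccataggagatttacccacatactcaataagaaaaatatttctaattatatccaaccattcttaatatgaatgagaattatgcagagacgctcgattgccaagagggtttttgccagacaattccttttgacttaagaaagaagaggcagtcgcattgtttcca
The Myh1 bases lie at chr11:67199852-67200101. The Myh4 bases lie at chr11:67237562-67237811. The Myh8 bases lie at chr11:67276874-67277123. The Myh2 bases lie at chr11:67170777-67171026. For Myh1 and Myh4 the RefSeq start differs from the gene start given above (67200052 and 67238029). The end of the Myh1 window therefore lies inside that gene, and the Myh4 window ends some way before the gene. Motif distances are counted from the RefSeq starts. Searched motifs were the E-box CANNTG, bound by MyoD family factors, the MCAT element CATTCC, bound by TEAD factors, the MEF2 site and the CArG box of serum response factor, in 250 bases before to 50 after each start. Myh1, Myh4 and Myh8 each had the same MEF2 match, TTATTTATAG, beginning at -211, -182 and -99 from the start site. Of 32841 promoters of the same length, 3.19% held a MEF2 match. Myh4 also had the only CArG match among the members, at -104, against 1.63% of all promoters, and MCAT matches stood at -231 in Myh4 and -16 in Myh1, against 14.7%. Myh4 had E-boxes at -221, -67 and 42 and Myh8 at -32 and 7, and 72.3% of all promoters held an E-box. The Myh2 window held no match to any of the 4 motifs, nor did the Myh1 window hold an E-box. Matches are letters in a window, and no binding was measured here.

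Introns of 3 members hold genes of microRNAs with closely related seeds, known as the MyomiRs of muscle. Their mature sequences from RefSeq are shown with the seed, bases 2 to 8, in capitals, since they tie Myh7b, Myh6 and Myh7 together.
mmu-miR-499-5p: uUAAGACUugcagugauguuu
mmu-miR-208a-3p: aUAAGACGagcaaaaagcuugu
mmu-miR-208b-3p: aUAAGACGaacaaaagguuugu
miR-499-5p lies in Myh7b, miR-208a-3p in Myh6 and miR-208b-3p in Myh7. The last 2 share the seed UAAGACG, and miR-499-5p has UAAGACU. The rows of the 3 microRNA genes stood at 0 reads in all 9 libraries, which were made from fragmented polyadenylated RNA, a method that does not measure mature microRNAs.

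Recovered reads per library ranged from 14222204 to 31910890, and the 8 genes took 2.55% to 4.49% of them. Nrep was at 63.9 to 86.3 FPKM (reads per length of gene and size of library, as scaled by the authors) in the 6 wild-type libraries and at 14.8, 6.37 and 9.72 FPKM in the P311-/- libraries, a log2 fold change of -2.94 against old wild type (SE 0.26, limma adjusted p = 0.00364). P311-/- replicate 1 stood apart from replicates 2 and 3. Its library quality weight, estimated by limma across all tested genes, was 0.270 against 0.687 and 2.54. Summed FPKM of 10 macrophage genes was 1661 in it against 710 and 978, and that of 10 fibroblast genes 1422 against 787 and 880. The members' values in the P311-/- comparisons are therefore also given without this library where it moved them, and the gene lists by their counts and medians without it. Mitochondrial genes took 8.79% to 17.6% of reads, with old wild type from 13.2% upwards and P311-/- replicate 2 inside its range at 14.1%.

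In FPKM, which corrects for gene length, the order of the mean levels over all 9 libraries was Myh4 (3971), Myh1 (1678), Myh2 (104), Myh8 (25.1), Myh3 (23.8), Myh7 (1.59), Myh7b (0.226) and Myh6 (0.119). Myh4 exceeded Myh1, and Myh1 exceeded Myh2, in all 9 libraries. Myh2 exceeded Myh3 and Myh8 in every library but old wild-type replicate 3. Myh3 and Myh8 were not separated: the ratio of Myh3 to Myh8 ran from 0.722 to 1.48. Myh7b and Myh6 overlapped each other, and both overlapped Myh7 in the wild-type groups. Together Myh4 and Myh1 made up 95.8% to 98.5% of the summed FPKM of the 8 genes in each library.

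**Figure D1:**
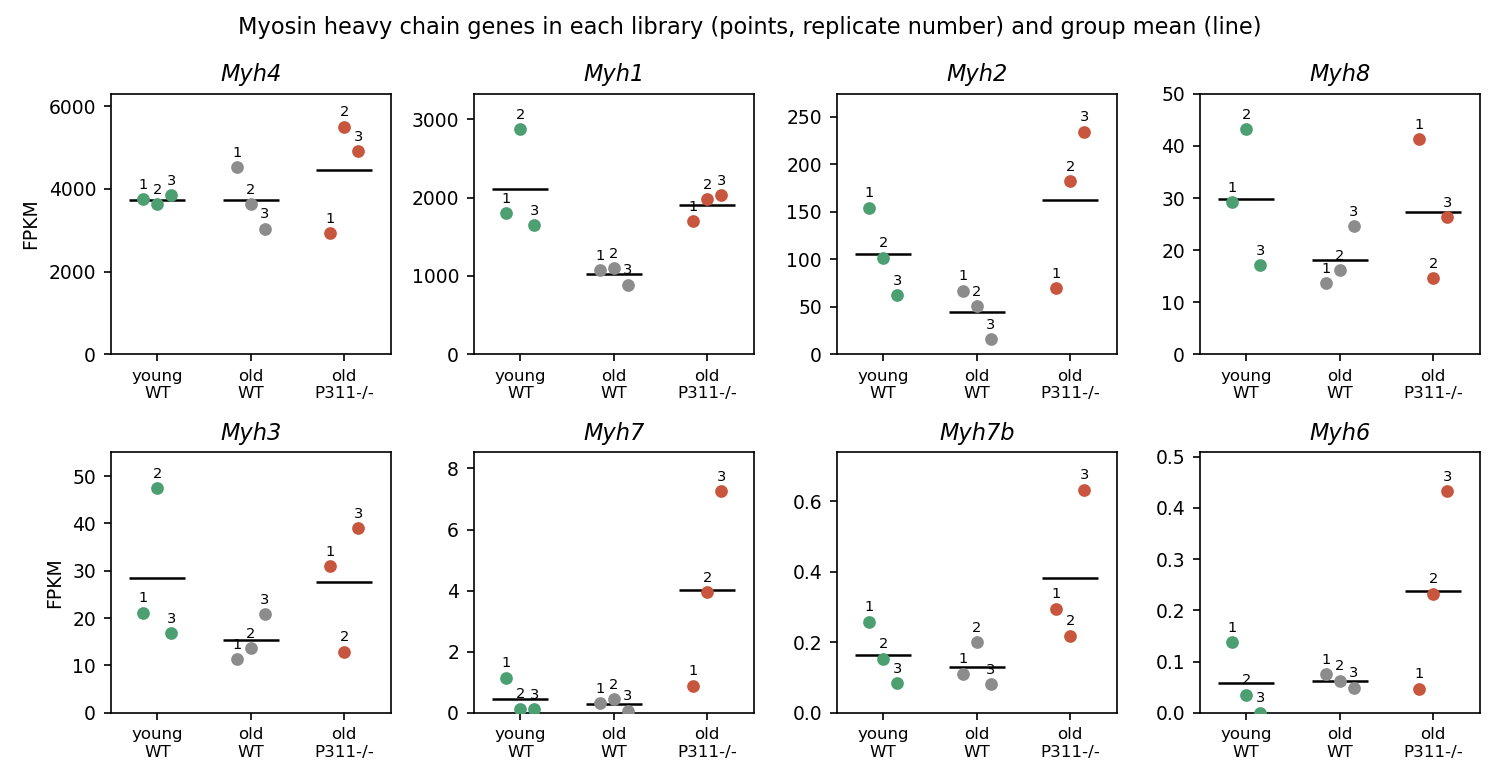
FPKM of each of the 8 myosin heavy chain genes on its own linear axis, by group; points are libraries labelled by replicate number and lines are means of 3 libraries. Myh1 was at 891 to 1099 FPKM in old wild type, below every other library, while Myh4 overlapped in all groups.

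Each comparison was tested with limma over 14233 genes in 1 fit of all 9 libraries, on log2 of FPKM plus 0.1, and a Benjamini-Hochberg adjusted p under 0.05 over all genes counted as a call. Changes on that scale understate those of low genes. Of the 8 members, 6 passed the filter on low values, namely Myh1, Myh2, Myh3, Myh4, Myh7 and Myh8, and Myh6 and Myh7b did not. Myh7 reached 0.5 FPKM in young wild-type replicate 1 and the 3 P311-/- libraries. It therefore passed only through the group where it was high. Its p-values and calls in the P311-/- comparisons are descriptions and not tests. The old wild-type libraries enter both the age and the P311-/- against old wild-type comparison, so the values of these comparisons are not independent.

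Between old and young wild type, 1 of the 6 tested members was called, and 5.4% of all tested genes were (3.39% higher and 2.01% lower). That member, Myh1, fell. The groups did not overlap for 1 member, Myh1 again, which was lower; 18.1% of all genes were lower without overlap and 19% higher, 37.1% in all. All 6 members had log2 fold changes below 0 and their median was -0.73, beside 0.00 over all genes; Myh4 was at -0.02. Genes of 6000 to 12000 bases, the length range of the members, had a median of -0.11. At an unadjusted p under 0.05, 2 of the 6 members passed, Myh1 and Myh2, against 26.3% of all genes.

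Between old P311-/- and old wild type, 0 of 6 members were called with limma, and 0.0703% of all genes were (0.0141% higher and 0.0562% lower). At an unadjusted p under 0.05, 3 of 6 passed (Myh1, Myh2 and Myh7), against 16.1% of all genes. Of these, Myh7 had entered the test only through the P311-/- group. The 3 genes were higher in every P311-/- library than in any old wild-type library, against 8.64% of all genes higher without overlap (9.39% were lower, 18% in all). All 6 members lay above 0, with a median log2 fold change of 0.83 beside -0.00 over all genes and 0.05 over genes of 6000 to 12000 bases. Without P311-/- replicate 1 the 3 genes were called, and so were 1875 of the 14233 genes (13.2%).

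Between old P311-/- and young wild type, 0 of 6 members were called with limma, against 0.4% of all genes (0.155% higher and 0.246% lower), and 0 members were free of overlap, against 23.5% (11.6% higher and 12.0% lower). At an unadjusted p under 0.05, 1 member passed, Myh7, against 21.4% of all genes. Members lay on both sides of 0, 3 above it, with a median of 0.08. Without P311-/- replicate 1, Myh7 was called, as were 2785 of the 14233 genes (19.6%). Myh7 had passed the filter only through the P311-/- group.

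**Figure D2:**
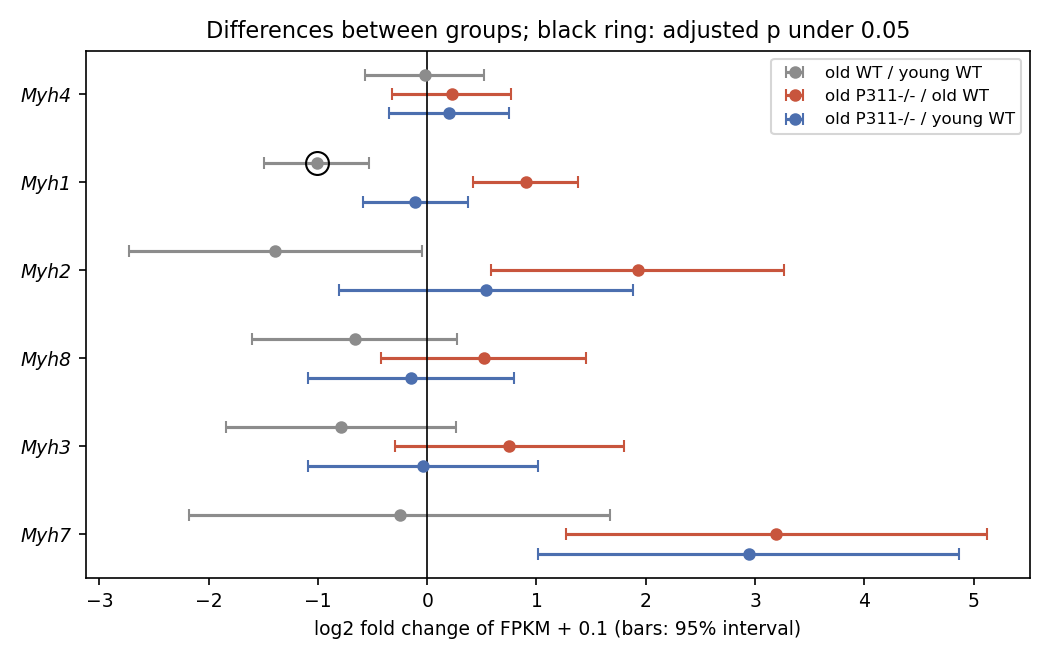
Log2 fold changes of the 6 tested myosin genes in the 3 comparisons; points are limma estimates over 9 libraries, bars are 95% intervals and the black ring marks an adjusted p under 0.05. Only Myh1 in old against young wild type, at -1.01, is ringed, while the intervals of Myh1, Myh2 and Myh7 in P311-/- against old wild type lie above 0 without passing the adjustment over all genes.

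Among the adult fast chains, Myh1 of type IIx separated old wild type from the other groups. Its level was 1804, 2875 and 1652 FPKM in young wild type, 1071, 1099 and 891 FPKM in old wild type and 1701, 1982 and 2030 FPKM in P311-/-. Every old wild-type library lay below every library of the other 2 groups, and young and P311-/- libraries overlapped. The group means were 2110 ± 667, 1020 ± 113 and 1904 ± 178 FPKM (SD, n = 3 each). Old against young wild type gave a log2 fold change of -1.01 (SE 0.21, limma adjusted p = 0.0362). The 95% interval of that change ran from -1.49 to -0.53. P311-/- against old wild type gave 0.90 (SE 0.21, limma adjusted p = 0.242; interval 0.42 to 1.38) and did not pass. Without P311-/- replicate 1 it was 0.98 (limma adjusted p = 0.0267). P311-/- against young wild type gave -0.11 (interval -0.59 to 0.37; limma adjusted p = 0.804), and -0.03 without that library.

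The age call of Myh1 was at the edge of the threshold. The gene kept a value of -1.16 to -0.76 when any single library was left out, but the call was lost without any 1 of the 6 wild-type libraries or without P311-/- replicate 3, with adjusted p from 0.0515 to 0.120. Over all genes the age calls fell from 768 to 14, 1 and 0 without young replicates 1, 2 and 3, and to 559, 0 and 10 without old replicates 1, 2 and 3.

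Myh4 of type IIb, the most abundant member, was at 3742, 3631 and 3840 FPKM in young wild type, 4526, 3627 and 3033 in old wild type and 2929, 5499 and 4909 in P311-/-. The 3 young libraries were close together, the other groups spread widely on both sides of them, and all groups overlapped. The means were 3738 ± 105, 3728 ± 752 and 4446 ± 1346 FPKM (SD, n = 3 each). The log2 fold change with age was -0.02, with a 95% interval from -0.57 to 0.52 (limma adjusted p = 0.963). It was 0.22 (limma adjusted p = 0.667) for P311-/- against old wild type and 0.20 (adjusted p = 0.664) against young wild type. In P311-/- the lowest library was replicate 1, and without it the values were 0.50 and 0.48. They were 0.04 and 0.02 without P311-/- replicate 2.

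Myh2 of type IIa stood at 154, 102 and 62.0 FPKM in young wild type, 66.8, 50.7 and 15.8 FPKM in old wild type and 69.8, 182 and 234 FPKM in P311-/-. Old wild type was the lowest group, its highest library just overlapping the lowest young library, and P311-/- replicate 1 lay only just above old wild type. Means were 106 ± 46.2, 44.5 ± 26.1 and 162 ± 84.1 FPKM (SD, n = 3 each). With age its log2 fold change came to -1.39 (SE 0.60, limma adjusted p = 0.176), and it came to 1.93 for P311-/- against old wild type (SE 0.60, limma adjusted p = 0.254), and neither passed. Against young wild type it was 0.54 (SE 0.60, limma adjusted p = 0.625), with 1.06 without P311-/- replicate 1, 0.19 without P311-/- replicate 3 and 0.20 without young replicate 3. Without P311-/- replicate 1 the value against old wild type was 2.45 (limma adjusted p = 0.0459). Old wild-type replicate 3 was the lowest of the 9 libraries, and without it that value was 1.31 and the age value -0.77.

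Shares of the summed FPKM within a library do not depend on how libraries were scaled. Type IIx (Myh1) made up 31.4%, 42.9% and 29.6% in young wild type, 18.8%, 22.9% and 22.4% in old wild type and 35.6%, 25.8% and 28.0% in P311-/-. Type IIb (Myh4) made up 65.1%, 54.2% and 68.7%, then 79.5%, 75.5% and 76.1%, then 61.4%, 71.5% and 67.7%. All 3 old wild-type libraries had a larger IIb share and a smaller IIx share than any of the other 6 libraries. Myh1 and Myh4 together made up 95.8% to 98.5% of the sum, so these shares nearly mirror each other and are not separate results. The FPKM of Myh4 itself had a log2 fold change of -0.02 with age. The IIx share differed by -13.3 percentage points between old and young wild type and by 8.45 between P311-/- and old wild type. The IIb share differed by 14.4 and -10.2 percentage points. Without P311-/- replicate 1 the P311-/- differences from old wild type were smaller, at 5.54 for IIx and -7.44 for IIb. Each of these 4 differences had a two-sided exact permutation p of 0.1, the smallest that 3 libraries against 3 allow, and an adjusted p of 0.3 over the 18 measures and comparisons tested. Between P311-/- and young wild type neither share separated the groups (exact permutation p = 0.5 and 0.6), with differences of -4.81 for IIx and 4.2 for IIb, and of -7.73 and 6.94 without P311-/- replicate 1.

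The ratio of Myh4 to Myh1 in FPKM restated this composition. It was 2.07, 1.26 and 2.33 in young wild type, 4.22, 3.30 and 3.40 in old wild type and 1.72, 2.77 and 2.42 in P311-/-. The lowest old wild-type ratio lay above the highest of the other groups. The type IIa share was 2.68%, 1.52% and 1.11% in young wild type, 1.17%, 1.05% and 0.398% in old wild type and 1.46%, 2.37% and 3.23% in P311-/-. P311-/- lay above old wild type in all libraries (exact permutation p = 0.1, adjusted 0.3), and the old and young groups overlapped (exact permutation p = 0.2).

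**Figure D3:**
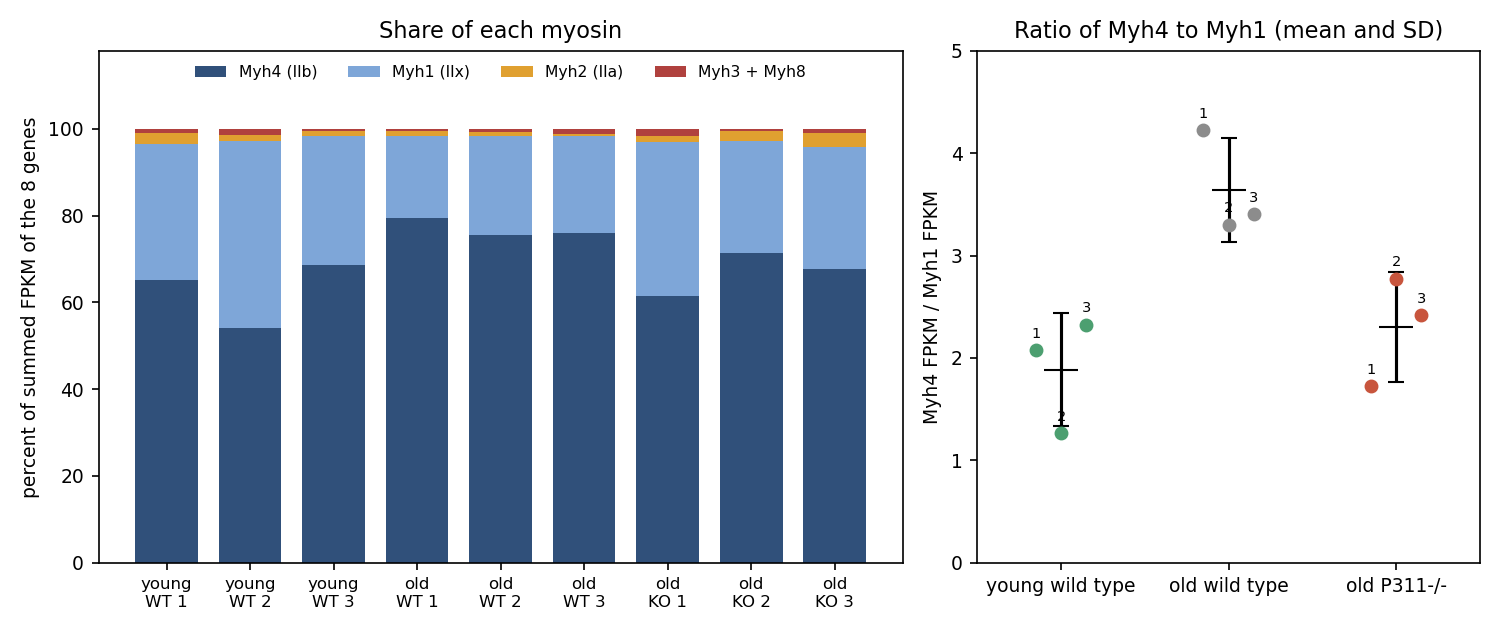
Left, percent of the summed FPKM of the 8 genes taken by Myh4, Myh1, Myh2 and Myh3 plus Myh8 in each library, stacked; Myh6, Myh7 and Myh7b are too small to see. Right, the ratio of Myh4 to Myh1 by library with the mean and SD of 3 libraries, which was 3.30 to 4.22 in old wild type and 1.26 to 2.77 elsewhere.

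The summed FPKM of the 8 genes was 5752, 6699 and 5588 in young wild type, 5690, 4806 and 3985 in old wild type and 4774, 7695 and 7248 in P311-/-. The groups overlapped in each comparison, and the exact permutation p was 0.2 for age, 0.3 for P311-/- against old wild type and 0.6 against young wild type. The P311-/- mean exceeded that of old wild type by 1745 FPKM and that of young by 559, and by 2644 and 1458 without P311-/- replicate 1. These are bulk samples, in which fewer fibres and less myosin RNA per fibre cannot be told apart.

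The developmental chains did not separate the groups. Embryonic Myh3 was at 21.1, 47.4 and 16.8 FPKM in young wild type, 11.4, 13.7 and 20.8 FPKM in old wild type and 30.9, 12.9 and 38.9 FPKM in P311-/-. Perinatal Myh8 was at 29.2, 43.2 and 17.1 FPKM in young wild type, 13.7, 16.1 and 24.6 FPKM in old wild type and 41.3, 14.6 and 26.4 FPKM in P311-/-. Both were highest in the same young library, replicate 2, and among the P311-/- libraries both were lowest in replicate 2. Their log2 values had a Pearson r of 0.90 over the 9 libraries, which share depth and scaling. With age the log2 fold change was -0.79 for Myh3 (SE 0.47, limma adjusted p = 0.312) and -0.66 for Myh8 (SE 0.42, limma adjusted p = 0.343). P311-/- against old wild type gave 0.75 for Myh3 (95% interval -0.30 to 1.80) and 0.52 for Myh8 (-0.42 to 1.46). Against young wild type both were near 0, at -0.04 and -0.15, with intervals of -1.09 to 1.01 and -1.09 to 0.79. Single libraries set much of these values. Myh8 was at 0.16 against old and -0.50 against young wild type, and Myh3 at 0.60 and -0.19, without P311-/- replicate 1. Against old wild type, Myh3 was at 1.23 and Myh8 at 0.91 without P311-/- replicate 2, and without P311-/- replicate 3 Myh3 was at 0.43. Without young replicate 2 the age value was -0.35 for each.

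Myh3 and Myh8 together made up 0.875%, 1.35% and 0.606% of the summed FPKM in young wild type, 0.440%, 0.619% and 1.14% in old wild type and 1.51%, 0.357% and 0.901% in P311-/-. The highest and the lowest of all 9 libraries were both P311-/-, so the spread within that group was as wide as across the study. Exact permutation p-values were 0.6, 0.7 and 1.0 for age, P311-/- against old and P311-/- against young. The difference of P311-/- from old wild type was 0.191 percentage points, and -0.104 without P311-/- replicate 1. The deposited length of Myh8, 11772 bases, is 1.91 times that of its longest coding transcript, and FPKM falls as length rises. With transcript lengths the developmental share ran from 0.521% to 2.25% and the ratio of Myh3 to Myh8 from 0.379 to 0.774, so Myh8 then exceeded Myh3 in every library.

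The slow chain Myh7 was low in all libraries and uneven in P311-/-. It stood at 1.14, 0.132 and 0.123 FPKM in young wild type, 0.305, 0.448 and 0.0721 FPKM in old wild type and 0.883, 3.95 and 7.26 FPKM in P311-/-. These values rest on 149, 19 and 21 reads, then 57, 64 and 15, then 217, 608 and 1891. P311-/- replicates 2 and 3 were the highest of the 9, and replicate 1 lay above all old but not all young wild-type libraries. Against old wild type the group differed by 3.19 on the log2 scale (SE 0.86, limma adjusted p = 0.243). Against young wild type it differed by 2.94 (SE 0.86, limma adjusted p = 0.123). Without P311-/- replicate 1 these were 4.02 (limma adjusted p = 0.0174) and 3.77 (adjusted p = 0.0145). Myh7 passed the filter only through the P311-/- libraries, so these p-values are descriptions and not tests. With age the value was -0.25 (95% interval -2.18 to 1.68), and without young replicate 1, the highest wild-type library, it was 0.57. The slow share of the summed FPKM was at most 0.1%, in P311-/- replicate 3.

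Myh6, the cardiac alpha chain, was near its counting limit. Its reads numbered 14, 4 and 0 in young wild type, 11, 7 and 8 in old wild type and 9, 28 and 88 in P311-/-. In young replicate 3 a count of 0 allows up to 0.0226 FPKM, the value of 3 reads, by counting error only. The highest level, 0.433 FPKM, was in P311-/- replicate 3, and the groups overlapped in all 3 comparisons. Of 8 cardiac marker genes, 0 passed the filter, and their summed level was 0.0903 to 1.08 FPKM; Nkx2-5 and Myl7 had 0 reads in all 9 libraries. In P311-/- replicate 3, where Myh6 and Myh7 were highest, that sum was the lowest of the 9.

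Myh7b had 26, 17 and 11 reads in young wild type, 16, 22 and 13 in old wild type and 56, 26 and 127 in P311-/-. Its level was 0.259, 0.153 and 0.0839 FPKM, then 0.111, 0.200 and 0.0811 FPKM, then 0.296, 0.219 and 0.634 FPKM. All P311-/- values lay above all old wild-type values, by a narrow margin in replicate 2. In a fit with no filter P311-/- differed from old wild type by 1.0 on the log2 scale (SE 0.46, limma adjusted p = 0.542), which did not pass.

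**Figure D4:**
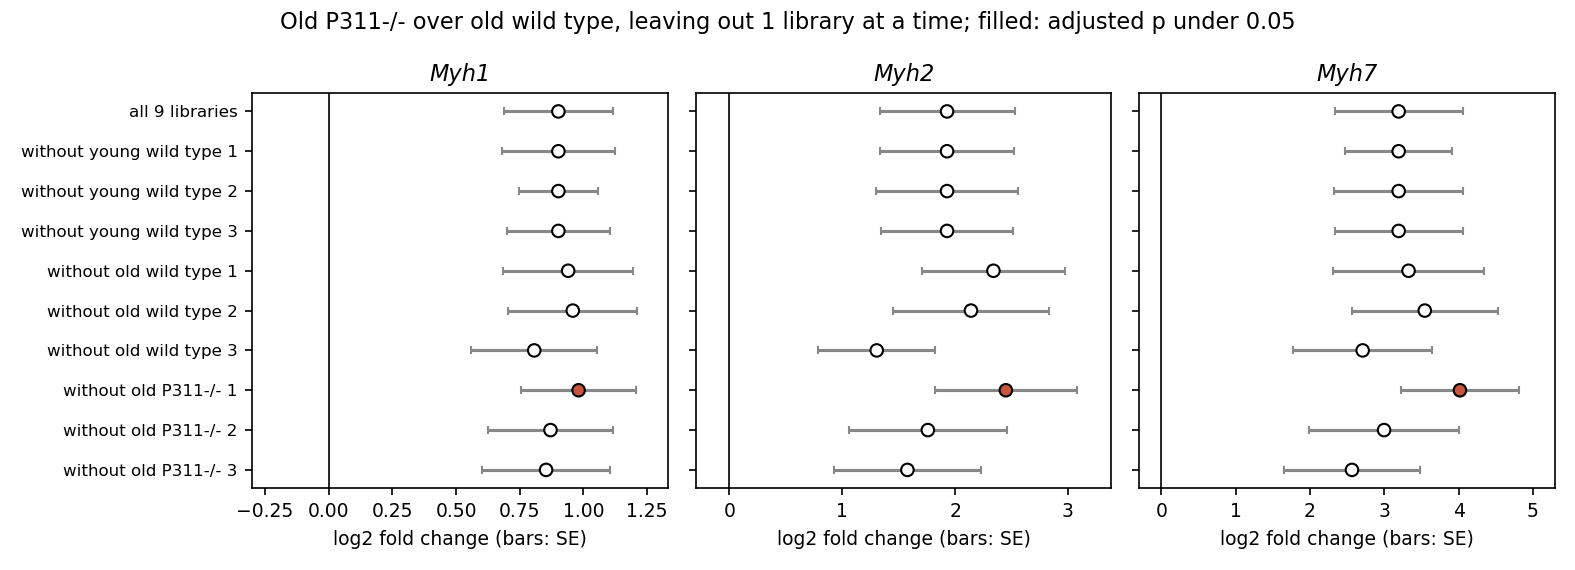
Log2 fold change of Myh1, Myh2 and Myh7 in old P311-/- over old wild type with all 9 libraries and with each library left out; bars are the SE and filled points have a limma adjusted p under 0.05. The points are filled only without P311-/- replicate 1, at 0.98, 2.45 and 4.02. All points had to lie above 0, since P311-/- and old wild type do not overlap for these genes. Leaving out a young library cannot move a point. Myh7 passed the filter only through the P311-/- group.

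Members share sequence, so reads can be assigned to a wrong copy or dropped, and how shared reads were counted is not given in the sources used here. Coding sequences of 1935 to 1942 codons were 91.6% identical between Myh6 and Myh7, 91.1% between Myh1 and Myh2 and 90.2% between Myh1 and Myh4. Of all windows of 50 bases in the coding sequence, 27.2% in Myh1, 27.9% in Myh2, 19.2% in Myh4 and 21% in Myh8 also occurred in a transcript of another member. Untranslated ends were not among these windows. Myh6 shared 23.8% of its windows with Myh7, Myh3 shared 3.79% with other members and Myh7b shared 0. With transcript lengths in place of the deposited ones, the IIx share still separated old wild type, at 19.4% to 23.5%, from the other libraries, at 26.4% or more.

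Among pairs of members, Myh2 and Myh7 had a Pearson r of 0.80 and Myh1 and Myh2 of 0.76 over the 9 libraries. Myh1 and Myh4 had only 0.29, and Myh4 and Myh8 -0.56. The tested genes of established symbol most like Myh1 across the libraries were Adgrl1 (r = 0.97), Zbtb7b (0.97) and Kank2 (0.97). For Myh2 they were Dcaf5 (0.98), Jph2 (0.97) and Dffa (0.96), and for Myh4 Cdnf (0.98), Myot (0.98) and Tmem109 (0.98). For Myh3 they were Map1s (0.95), Myl6b (0.95) and Qsox1 (0.93), and for Myh8 Foxp4 (0.95), Nes (0.93) and Zfp451 (0.93). For Myh7 they were Npr2 (0.96), Gtf2i (0.96) and Phf2 (0.95). Each is the top of 12202 genes searched over 9 points and is a description. Myl6b, the light chain of slow and embryonic fibres, and Nes, the intermediate filament of immature muscle cells, are muscle genes on these lists, as are Jph2 of the triad and Myot of the Z disc.

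The myosin genes overlap or border non-coding genes that were chosen for mention after their values were seen. Myhas, an antisense RNA at chromosome 11, 67211256 to 67237573 on the minus strand, overlaps Myh1. It was at 27.0, 19.2 and 21.6 FPKM in young wild type, 28.4, 31.9 and 30.7 in old wild type and 23.4, 29.3 and 24.1 in P311-/-. Old wild type lay above young in all libraries, opposite to Myh1, with a log2 fold change of 0.44 (SE 0.15, limma adjusted p = 0.108) that did not pass. The RNA 2310065F04Rik, between Myh3 and Myh2 on the minus strand (67112461 to 67120080), was at 11.4, 8.90 and 7.81, then 22, 23.4 and 10.8, then 6.55, 14.1 and 12.2 FPKM. Its old and young groups overlapped, and the change was 0.93 (SE 0.34, limma adjusted p = 0.129). The antisense RNA 9430073C21Rik overlaps Myh2 and had changes of the same sign as Myh2. They were -0.28 with age (limma adjusted p = 0.747) and 0.70 in P311-/- against old wild type (adjusted p = 0.471), with overlapping groups. Whether counting used strand is not known. Reads of Myh1 and Myhas, or of Myh2 and 9430073C21Rik, in the stretch they share cannot be told apart.

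The other myosin 2 heavy chains, of nonmuscle and smooth muscle cells, were the members' nearest relatives outside the sarcomere. Of 6 such genes 4 were tested, and with age 2 fell and 0 rose, beside 2.01% and 3.39% of all genes. Myh10, nonmuscle IIB, was at 4.82, 5.89 and 4.48 FPKM in young and 2.64, 2.1 and 1.74 FPKM in old wild type (log2 fold change -1.20, SE 0.20, limma adjusted p = 0.0307). Myh9, nonmuscle IIA, was at 9.82, 14.9 and 11.7 FPKM in young and 6.67, 7.22 and 7.63 FPKM in old wild type (-0.73, SE 0.18, adjusted p = 0.0486). For both, every old library lay below every young one, as for 18.1% of all genes. The P311-/- values were 3.41, 2.56 and 3.69 FPKM for Myh10 and 9.39, 6.48 and 7.94 FPKM for Myh9. In either P311-/- comparison limma called 0 of the 4 (3 in each at an unadjusted p under 0.05, beside 16.1% and 21.4% of all genes). Beside them, 3 of 10 fibroblast genes (Col1a1, Fbn1 and Islr) fell with age, against 2.01% of all genes. The summed FPKM of the 10 was between 1706 and 1834 in young, 1178 and 1495 in old wild type and 787 and 1422 in P311-/-. The part of these cells in the Myh9 and Myh10 values was not tested.

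Partners of the adult fast chains, 14 genes of the fast sarcomere and its calcium handling, had 0 limma calls in each comparison. At an unadjusted p under 0.05, 6, 6 and 5 of them passed in the order age, P311-/- against old and P311-/- against young. Of all genes 26.3%, 16.1% and 21.4% did. Their median log2 fold change was 0.35 with age, -0.02 for P311-/- against old wild type and 0.31 against young. Their summed FPKM lay between 35548 and 41512 in young wild type, between 47903 and 55898 in old wild type and between 43564 and 51197 in P311-/-. Pvalb, the calcium buffer of fast fibres, had the smallest p with age, at 7644, 5258 and 6148 FPKM in young and 11581, 10413 and 9152 FPKM in old wild type (0.72, limma adjusted p = 0.0565). Myl1, the fast essential light chain, was at 7145, 7680 and 7153 FPKM in old wild type and 5967, 4775 and 4343 FPKM in P311-/- (-0.56, limma adjusted p = 0.253). With age 10 of the 14 lay above 0 and 4 below. Genes under 2000 bases, a short class, had a median of 0.21 with age. With P311-/- replicate 1 left out the list had 4 higher and 2 lower calls against old wild type (median 0.12) and 7 and 1 against young (0.39). That fit called 13.2% of all genes, in either direction, against old wild type and 19.6% against young.

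The slow sarcomere list of 14 genes also had 0 limma calls in each comparison (5, 4 and 4 at an unadjusted p under 0.05, beside 26.3%, 16.1% and 21.4% of all genes). Its medians were -0.06, 0.47 and 0.27 in the same order. Summed FPKM lay between 1106 and 1324 in young wild type, between 1037 and 1158 in old wild type and between 1352 and 1784 in P311-/-, where every library exceeded the wild-type ones. Of single genes, 4 were higher without overlap against old wild type and 0 lower, beside 8.64% and 9.39% of all genes. Against young wild type 0 were higher and 1 lower, beside 11.6% and 12.0%. Of the 14, 12 lay above 0 in P311-/- against old wild type. Myoz2, a Z-disc protein of slow fibres, was at 14.7, 13.1 and 10.2 FPKM in old wild type and 21, 19.2 and 28.1 FPKM in P311-/- (0.84, limma adjusted p = 0.242). Mybpc1, slow myosin-binding protein C, was at 641, 581 and 505 FPKM in old wild type and 694, 998 and 1021 FPKM in P311-/- (0.64, limma adjusted p = 0.253). This gene was a large part of the summed FPKM of the list. Leaving out P311-/- replicate 1, 3 of the 14 rose against old wild type and 0 fell (median 0.56), and 2 rose and 1 fell against young. Of all genes, 13.2% and 19.6% were called in that fit in either direction.

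Of 14 genes of embryonic and new fibres, 1 rose with age, beside 3.39% of all genes. In the P311-/- comparisons 0 were called by limma. At an unadjusted p under 0.05, 2 passed against old and 1 against young, beside 16.1% and 21.4% of all genes. Chrna1, the alpha subunit of the acetylcholine receptor, was at 11.1, 16 and 13.0 FPKM in young and 23.4, 43.2 and 64.4 FPKM in old wild type (1.6, SE 0.34, limma adjusted p = 0.0358). The median of the list was 0.28 with age, -0.25 for P311-/- against old wild type and 0.06 against young. Its summed level was between 1761 and 2209 FPKM in young wild type, between 2285 and 3437 in old wild type and between 1153 and 2154 in P311-/-. Myh3 and Myh8 had values of the other sign in the first 2 comparisons, none of them called. Once P311-/- replicate 1 was left out, 1 of the list rose and 2 fell against old wild type (median -0.33), and 0 rose and 1 fell against young (-0.14). The shares of all genes called there in either direction were 13.2% and 19.6%.

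Of 15 pan-fibre sarcomere and scaffold genes, 1 rose and 1 fell with age, beside 3.39% and 2.01% of all genes. Tcap, the titin cap, was at 787, 763 and 624 FPKM in young and 1654, 1577 and 1569 FPKM in old wild type (1.15, limma adjusted p = 0.0381). Against young wild type 2 of the 15 rose in P311-/-, beside 0.155% of all genes. They were Tcap (1.66, limma adjusted p = 0.0373) and the thin-filament gene Lmod2 (1.09, adjusted p = 0.0436). The list's medians were 0.05, 0.48 and 0.36. In P311-/- against old wild type limma called 0 of 15 (5 at an unadjusted p under 0.05, beside 16.1% of all genes). The fit that left out P311-/- replicate 1 had 9 of the 15 rising against old wild type and 8 against young, with 0 falling in either. It called 13.2% and 19.6% of all genes in either direction.

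Chaperones and assembly factors of myosin, 11 genes, had 0 limma calls in each comparison, with medians of -0.01, 0.02 and 0.01. At an unadjusted p under 0.05, 3, 3 and 3 passed, beside 26.3%, 16.1% and 21.4% of all genes. Unc45a, the general myosin chaperone, was at 3.27, 3.61 and 4.12 FPKM in young and 2.77, 2.23 and 2.29 FPKM in old wild type (-0.57, limma adjusted p = 0.0602). Hsp90aa1, the inducible Hsp90, was at 24.5, 30.5 and 32.7 FPKM in young wild type and 22.1, 15.6 and 17.1 FPKM in P311-/- (-0.68, limma adjusted p = 0.0891). The compared groups were free of overlap for both genes. Of all genes, 18.1% were lower without overlap with age and 12.0% in P311-/- against young. In the fit lacking P311-/- replicate 1, 3 rose and 1 fell against old wild type and 4 rose and 2 fell against young. Over all genes 13.2% and 19.6% were called in either direction.

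Among 25 fibre type regulators, 1 rose and 2 fell with age, beside 3.39% and 2.01% of all genes. In the P311-/- comparisons 0 were called by limma. At an unadjusted p under 0.05, 6 passed against old and 11 against young, beside 16.1% and 21.4% of all genes. Mef2a, a factor of the MEF2 family, was at 11, 11 and 10.2 FPKM in young and 13.8, 16.3 and 17.4 FPKM in old wild type (0.55, limma adjusted p = 0.0411). Nfatc2, a calcineurin-dependent factor also of immune cells, was at 2.78, 3.10 and 2.72 FPKM in young and 1.79, 1.64 and 1.58 FPKM in old wild type (-0.75, limma adjusted p = 0.0362). Of 10 macrophage genes 0 were called and all 10 lay below 0 with age, with a summed level of 1528 to 2362 FPKM in young and 1241 to 1817 FPKM in old wild type. Their part in the Nfatc2 values was not tested. The medians of the regulators were -0.18, 0.09 and -0.03. With P311-/- replicate 1 out of the fit, 4 regulators rose and 0 fell against old wild type, and 5 rose and 2 fell against young. All-gene shares called in either direction were 13.2% and 19.6%.

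Each age call named in these lists was lost when any 1 of young replicates 2 and 3 and old replicates 2 and 3 was left out, with the number of genes called over the table falling as given for Myh1. The Tcap and Lmod2 calls against young wild type were lost without any young library, old replicate 2 or 3 or P311-/- replicate 2 or 3. Calls of Chrna1, Myh9, Mef2a, Col1a1, Islr and Lmod2 were also lost under total-count scaling. The fold changes kept their sign in each of these fits.

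Summed macrophage, fibroblast and Schwann markers lay outside the wild-type range in P311-/- replicates 2 and 3 but inside it in replicate 1. In replicates 2 and 3, where Myh2 and Myh7 were highest, the macrophage sum of 710 and 978 FPKM and the fibroblast sum of 787 and 880 FPKM were the lowest of the 9 libraries. Schwann cell and nerve markers, 6 genes, summed to 6.12, 12.0 and 11.3 FPKM in P311-/- against 3.08 to 6.52 FPKM in the wild-type libraries. Of 10 macrophage and 10 fibroblast genes, 10 and 9 lay below 0 in P311-/- against old wild type. Limma called 0 of them (1 and 2 at an unadjusted p under 0.05, beside 16.1% of all genes). When P311-/- replicate 1 was left out, 3 macrophage and 2 fibroblast genes fell against old wild type, and 7 and 7 against young. Of all genes 13.2% were then called in either direction against old wild type and 19.6% against young. Smooth muscle markers, 6 genes, summed to 1077, 1461 and 1531 FPKM in P311-/-, 946 to 978 FPKM in old and 839 to 1130 FPKM in young wild type. Every P311-/- library exceeded the old wild-type ones. Most of that sum was Des, the intermediate filament of fibres as well, at 930, 904 and 866 FPKM in old wild type and 1003, 1418 and 1480 FPKM in P311-/-. Satellite cell, endothelial, smooth muscle, adipocyte and Schwann lists also had 0 calls in each comparison with all libraries in the fit. The part of these markers in the myosin values was not tested.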

How the data were processed

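The authors deposited FPKM per gene, with library sizes scaled across samples; the submitters' processing notes list HISAT2 2.2.1, featureCounts 2.1.1, DESeq2 1.42.0 and the build mm39. Gene positions in the deposited table match GRCm38 (98.3% of identifiers shared with GENCODE M21, and 8 of 8 members), so GRCm38 is used. For strandedness, read length and counting options, the sources used here give no value. Multiplying FPKM by the deposited gene length and 1 constant for each library gave whole reads for 100% of values (tolerance 0.001), used for depth, the filter and voom.

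Genes with at least 0.5 FPKM and at least 10 reads, each in at least 3 libraries, were tested with limma 3.58.1 (R 4.3.3; trend, robust moderation) on log2(FPKM + 0.1), with 0.1 as the pseudocount, in 1 fit of 9 libraries with group means and no block. P-values were adjusted by Benjamini-Hochberg over all 14233 genes. Shares and sums were compared by two-sided exact permutation tests over libraries. The limma fit was also run on simulated counts with the same spread setting for all genes and no outlying library. That run does not cover a library like P311-/- replicate 1. Depth limits the precision of the low genes, and floors cover counting error only.

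The members and the gene lists were chosen with earlier results of these data known. Named genes were the members, the 3 genes most like each tested member by Pearson r, called genes of each list (at most 4) or, with none called, the 2 of smallest p, and Nrep; 2 list genes that the rule named for old against young wild type are not reported here. Alternatives were other pseudocounts, no filter, total-count and TMM scaling, a replicate block, a fit of 6 libraries, voom, library quality weights and leaving out each library. Transcript lengths, overlap counts under other scalings, and list counts without P311-/- replicate 1 were added after the data were seen.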

Additional observations from a re-analysis of the deposited data

How the results depend on the processing

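The main limits are few libraries, P311-/- replicate 1 and an age call of Myh1 near the threshold. In old against young wild type the number of members called was 1; it was 0 with no filter (adjusted p of Myh1 0.0784) and 0 with the replicate block (0.0691), where calls over all genes went from 768 to 0. Same-numbered libraries correlated at -0.10 to 0.15 after removing group means, and differently numbered ones at -0.16 to 0.21. These values show no pairing by number, but 3 libraries a group are too few to exclude one. Leaving out 1 library gave 0 to 1 members called with age, 0 to 3 in P311-/- against old wild type and 0 to 1 against young. Library quality weights called 3 and 1 members in the P311-/- comparisons, beside 19.1% and 22.3% of all genes. Total-count scaling put the median of all genes with age at -0.12 and gave Myh1 -1.14 (limma adjusted p = 0.0406). It raised the members lower without overlap with age to 2 (26.8% of all genes) and gave a summed FPKM difference of -168 between P311-/- and young.

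Against young wild type, leaving out 1 library gave log2 fold changes of -0.26 to 0.14 for Myh1, -0.36 to 0.44 for Myh3 (0.26 with quality weights) and -0.50 to 0.24 for Myh8. With age it gave -0.17 to 0.12 for Myh4 (above 0 without old replicate 3) and -0.67 to 0.57 for Myh7 (above 0 without young replicate 1 or old replicate 3). Leave-one-out ranges in percentage points were -0.00553 to 0.00341 for the slow share with age, -0.104 to 0.474 for the developmental share in P311-/- against old wild type, -0.316 to 0.262 for the same share against young, and -0.0329 to 7.23 for the IIb share against young; the summed FPKM difference against young ran from -2.36 to 1458. The causes were not tested. Of the alternatives for the main measures, 201 kept direction and call, 14 moved and 7 turned. The 14 were counts of members. For sums and shares the exact permutation p cannot fall below 0.1, so their call could not change and only their direction could turn. For single genes 582 kept direction and call, 123 lost a call, 24 gained a call and 9 turned.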
